A study of Mus musculus with 11 samples.

Results

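The let-7 family is a set of microRNAs (miRNAs) that share the same seed, the stretch of bases near the 5′ end with which a miRNA finds its targets. The 10 members described here were the main arms of let-7a, let-7b, let-7c, let-7d, let-7e, let-7f, let-7g, let-7i and miR-98, together with let-7b-3p, the opposite arm of the let-7b hairpin. In the table they are named mmu-let-7a-5p, mmu-let-7b-5p, mmu-let-7b-3p, mmu-let-7c-5p, mmu-let-7d-5p, mmu-let-7e-5p, mmu-let-7f-5p, mmu-let-7g-5p, mmu-let-7i-5p and mmu-miR-98-5p. They were picked by name, with earlier results of these data known. They are 10 of the 2304 features in the count table, which held 1592 mature miRNAs and 712 endogenous siRNAs. Small RNA was sequenced from adult C57BL/6 mice in 11 libraries. Sperm of the cauda epididymis gave 2 libraries from males in which Dicer was deleted in germ cells (Dicer conditional knockout, cKO), 3 from males with the same kind of deletion of Drosha (Drosha cKO), and 2 from wild-type (WT) males. 2PN (pronuclear) embryos made by injecting Dicer cKO, Drosha cKO or WT sperm gave 1 library each, and superovulated WT oocytes gave 1 library. The genotype of an embryo library is therefore that of the sperm. The knockouts were made with floxed alleles and a Cre line that the labels do not name, and the labels name centrifugation as the only step that separated sperm from other material. Separate animals are not stated for the libraries of a group, and a p-value here reflects only how much these samples varied, which may be technical.

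Let-7 miRNAs are cut from longer transcripts in the nucleus by Drosha and then from the hairpin in the cytoplasm by Dicer. They repress growth and stem cell genes, accumulate as cells differentiate, and are held low in embryonic stem cells by the RNA-binding protein LIN28, which blocks maturation of the let-7 precursors. In the oocyte, miRNAs are present while their repressive activity is known to be weak. Each cKO removes an enzyme of this pathway from germ cells, and, with no messenger RNA data, neither deletion could be checked.

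The mature sequences of all 10 members are given because the results turn on members that differ by a few bases. They are RefSeq sequences on GRCm38.p6, written 5′ to 3′ with the seed (bases 2 to 8) in capitals, and all 10 members were matched by name.
let-7a-5p: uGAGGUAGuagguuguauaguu
let-7c-5p: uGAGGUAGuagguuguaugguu
let-7b-5p: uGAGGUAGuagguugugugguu
let-7e-5p: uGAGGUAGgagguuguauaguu
let-7f-5p: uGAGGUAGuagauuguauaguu
let-7d-5p: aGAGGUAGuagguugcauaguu
let-7g-5p: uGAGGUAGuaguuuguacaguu
let-7i-5p: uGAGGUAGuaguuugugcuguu
miR-98-5p: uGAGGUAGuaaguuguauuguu
let-7b-3p: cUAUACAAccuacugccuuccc

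The 9 members from 5p arms share the seed GAGGUAG, which was present in 11 of 1679 mature mouse miRNA names in the RefSeq table, the other two being let-7k and miR-1961. Let-7b-3p has a different seed, UAUACAA. All 10 mature sequences are 22 bases long, so CPM compares members per length. Against let-7a-5p, with positions counted from the 5′ end and the base of let-7a-5p first, let-7c-5p carried A19G, let-7e-5p carried U9G and let-7f-5p carried G12A. Let-7b-5p carried A17G and A19G, so it differs from let-7c-5p at 1 position. Across the 36 pairs of 5p members, 4 pairs differed at 1 position and the pair farthest apart, let-7d-5p and let-7i-5p, at 6. How reads were assigned to such near-identical rows is not stated in the labels or files, so the split between let-7a, let-7c, let-7e and let-7f and between let-7b and let-7c is uncertain to that extent.

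The members come from 12 hairpins on 7 chromosomes in the GRCm38.p6 annotation. Let-7a, let-7c and let-7f each have a pair of hairpins with the same mature sequence, so their reads cannot be assigned to a locus. Mirlet7a-1 (chr13:48538179-48538272), Mirlet7f-1 (chr13:48537829-48537917) and Mirlet7d (chr13:48536012-48536114) lie on the minus strand of chromosome 13, with 262 bases between the hairpins of let-7a-1 and let-7f-1 and 1715 between those of let-7f-1 and let-7d. Mirlet7c-2 (chr15:85706603-85706697) and Mirlet7b (chr15:85707319-85707403) lie 622 bases apart inside the long noncoding RNA gene Lncppara. Mirlet7f-2 and Mir98 lie 786 bases apart within the gene Huwe1 on chromosome X. The remaining hairpins are Mirlet7a-2 on chromosome 9 (5212 bases from Mir100), Mirlet7c-1 on chromosome 16 (657 bases from Mir99a), Mirlet7e within Spaca6 on chromosome 17 (368 bases from Mir125a), Mirlet7g within Wdr82 on chromosome 9 and Mirlet7i on chromosome 10.

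Reads assigned to the 2304 features numbered 108141 and 122989 in the Dicer cKO sperm libraries, 12003 to 100934 in the Drosha cKO sperm libraries, and 73377 and 278890 in WT sperm. Depth was lower in the 2PN libraries (2951 for Dicer cKO, 8967 for Drosha cKO and 3243 for WT sperm) and in the oocyte (5530). Levels below are CPM, read counts scaled to the same total of listed reads in every library. Markers of testis germ cells, of other cell types and of the early embryo were read in the same libraries, as summed shares of listed reads. The 8 testis germ cell miRNAs, with the miR-34 and miR-449 families among them, took 0.838% to 0.866% in the Dicer cKO sperm libraries, 1.42% to 2.48% in the Drosha cKO sperm libraries and 16.4% to 18.1% in WT sperm. The 7 epithelial miRNAs took 13.8% to 16.4% in the Dicer cKO sperm libraries, 11.5% to 14.4% in the Drosha cKO sperm libraries and 1.69% to 1.86% in WT sperm. No germ cell, epithelial, blood or stromal marker was at 0 in every library of a sperm group. Of the early embryo miRNAs of the miR-290 cluster, 5 of 6 were in the table and took 1.97% of listed reads in the WT 2PN library and 1.93% in the oocyte, with miR-292-3p at 0 in both.

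In sperm, the let-7 family took a larger share of listed reads in both knockouts than in WT. The 10 members together made up 8.81% and 8.39% of listed reads in the Dicer cKO libraries, against 3.67% and 3.31% in the WT libraries. In the Drosha cKO libraries they made up 10.7%, 17.5% and 12.7%. The 3 groups did not overlap, and their means were 8.60% ± 0.298 in Dicer cKO sperm (SD, n = 2), 13.6% ± 3.48 in Drosha cKO sperm (SD, n = 3) and 3.49% ± 0.252 in WT sperm (SD, n = 2). The shares rest on 9069 and 10833 family reads in Dicer cKO sperm, 2020 to 10849 in the Drosha cKO sperm libraries, and 2693 and 9241 in WT sperm. A share of this kind also moves when other features fall, and the deposited RPM values, which divide by a larger library number, gave another picture. Family RPM was 3898 and 5880 in the Dicer cKO sperm libraries and 2679 to 5095 in the Drosha cKO sperm libraries, against 791 and 3331 in WT sperm. On that scale the Drosha cKO libraries overlapped the WT libraries. In a bulk library, fewer cells of a type and less RNA per cell cannot be told apart.

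**Figure D1:**
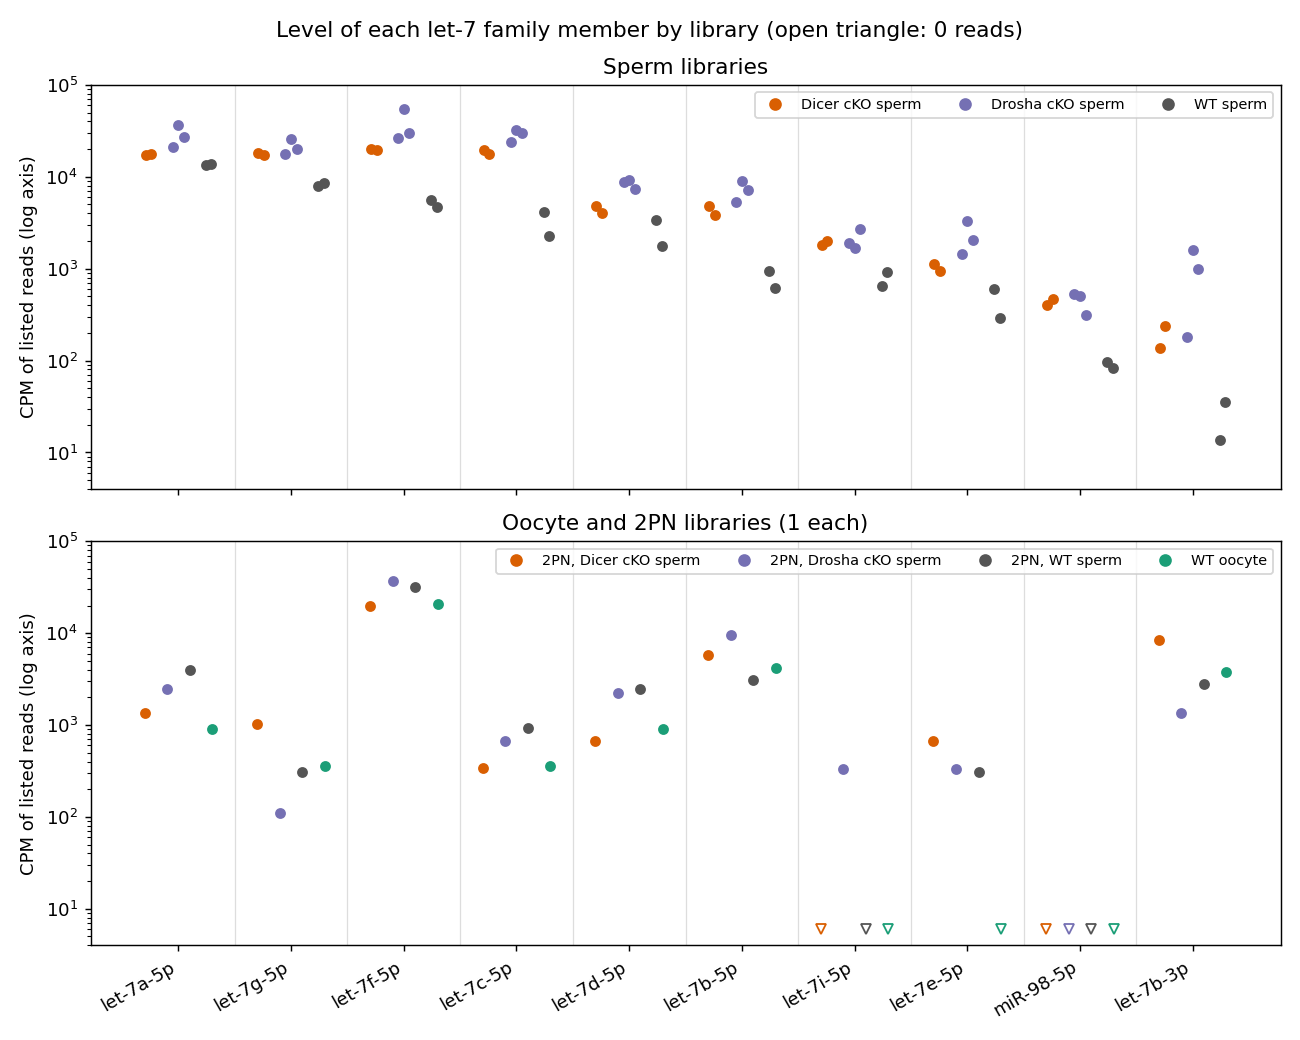
Level of each member in every library, in CPM of listed reads on a log axis, with sperm libraries above and oocyte and 2PN libraries below. In sperm, the points of both knockouts lie above the WT points for all 10 members, beside 46.3% of all tested features for Dicer cKO and 42.1% for Drosha cKO, and in the lower panel let-7f-5p lies highest in every library.

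The levels of all 10 members, in CPM, lay higher in both knockouts than in WT, with no overlap between libraries. The same held for 46.3% of the 335 tested features in Dicer cKO sperm and 42.1% in Drosha cKO sperm, while 34.9% and 30.1% lay lower with no overlap, all in CPM. These shares move with the library totals, whose effect on the typical feature is given with the tests. The gap differed by member. Let-7a-5p, the most abundant member in WT sperm, had 17302 and 17903 CPM in Dicer cKO sperm and 21123, 36991 and 26883 CPM in Drosha cKO sperm, against 13369 and 13912 CPM in WT sperm. Let-7c-5p had 19538 and 17533 CPM in Dicer cKO sperm and 23818, 32075 and 29646 CPM in Drosha cKO sperm, against 4102 and 2273 CPM in WT sperm. The lowest knockout library of let-7c-5p therefore stood at more than 4 times its highest WT library, while the groups of let-7a-5p nearly touched. Let-7f-5p had 20108 and 19687 CPM in Dicer cKO sperm and 26552, 54903 and 29835 CPM in Drosha cKO sperm, against 5533 and 4665 CPM in WT sperm. Let-7b-5p had 4822 and 3819 CPM in Dicer cKO sperm and 5271, 9081 and 7160 CPM in Drosha cKO sperm, against 940 and 610 CPM in WT sperm. These 3 members were the ones that stood farthest above WT among the abundant rows.

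Let-7g-5p, encoded alone within Wdr82, had 18058 and 17154 CPM in Dicer cKO sperm and 17913, 25827 and 19974 CPM in Drosha cKO sperm, against 8013 and 8591 CPM in WT sperm. Let-7d-5p had 4797 and 4087 CPM in Dicer cKO sperm and 8748, 9164 and 7286 CPM in Drosha cKO sperm, against 3380 and 1750 CPM in WT sperm. Both lay closer to WT than let-7c-5p did. Let-7i-5p averaged 1907 ± 167 CPM in Dicer cKO sperm (n = 2) and 2087 ± 544 CPM in Drosha cKO sperm (n = 3), against 790 ± 192 CPM in WT sperm (n = 2), with SDs. Let-7e-5p averaged 1041 ± 126 CPM in Dicer cKO sperm and 2287 ± 956 CPM in Drosha cKO sperm, against 445 ± 219 CPM in WT sperm. MiR-98-5p averaged 430 ± 45.2 CPM in Dicer cKO sperm and 450 ± 119 CPM in Drosha cKO sperm, against 88.9 ± 9.14 CPM in WT sperm. It rested on 7 and 23 reads in WT, so it and let-7b-3p were the least deeply counted members.

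The test of each member used edgeR's quasi-likelihood fit over all 335 features that passed its expression filter, with TMM scaling and Benjamini-Hochberg adjustment. All 10 members passed the filter. TMM scaling sets the typical feature near 0 and so moves the members down relative to their CPM: the median log2 change of all tested features was 0.03 in Dicer cKO sperm and 0.05 in Drosha cKO sperm. With library totals alone that median was higher by 0.57 and 0.99 on the log2 scale, and with the authors' library divisor it was higher by 0.85 in Dicer cKO sperm and lower by 0.09 in Drosha cKO sperm. The changes below are relative to the TMM scale.

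In Dicer cKO against WT sperm, 3 of the 10 members rose and none fell, beside 16.1% of all tested features that rose and 31.0% that fell (54 and 104 features). The split was 101 and 91 with library totals. Let-7c-5p rose by 1.94 log2 units (SE 0.439, edgeR adjusted p = 0.00183). Let-7b-5p rose by 1.85 (SE 0.527, edgeR adjusted p = 0.00873) and let-7f-5p by 1.28 (SE 0.472, edgeR adjusted p = 0.0353). MiR-98-5p had a log2 change of 1.55 (edgeR adjusted p = 0.0721) and let-7b-3p of 1.86 (edgeR adjusted p = 0.125), and neither passed. The median over the members was 0.97, against 0.03 over all tested features. Let-7a-5p had a log2 change of -0.36 (SE 0.458, edgeR adjusted p = 0.532), and this sign flipped to 0.36 with library totals and 0.26 with the authors' divisor. Over the 7 fits that each left out 1 library, let-7c-5p passed in 6, let-7b-5p in 4 and let-7f-5p in 3. None of the 10 passed without Dicer cKO library 1, and only 1 passed without Dicer cKO library 2 or without WT library 2. The lost call of let-7c-5p without Dicer cKO library 1 had an edgeR adjusted p of 0.111.

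In Drosha cKO against WT sperm, 5 of the 10 members rose and none fell, beside 22.1% of all tested features that rose and 33.1% that fell (74 and 111 features). That split was 134 and 89 with library totals, and 23 and 101 with the authors' divisor. Let-7c-5p rose by 2.30 log2 units (SE 0.424, edgeR adjusted p = 0.000451), and let-7b-5p rose by 2.30 as well (SE 0.512, edgeR adjusted p = 0.00171). Let-7f-5p rose by 1.90 (SE 0.456, edgeR adjusted p = 0.00281), let-7e-5p by 1.498 (SE 0.588, edgeR adjusted p = 0.0402) and let-7b-3p by 3.74 (SE 0.973, edgeR adjusted p = 0.00479). Let-7d-5p, with a log2 change of 0.87 and an edgeR adjusted p of 0.110, did not pass. Let-7a-5p, at 0.05, was itself the median tested feature (edgeR adjusted p = 0.925). Its sign flipped under several scalings, to -0.19 with the authors' divisor and -0.066 with DESeq2 size factors. The median over the members was 1.45. Let-7c-5p, let-7b-5p and let-7b-3p passed in all 7 fits that left out 1 library, let-7f-5p in 5 and let-7e-5p in 2. The highest edgeR adjusted p over those fits was 0.0726 for let-7f-5p and 0.445 for let-7e-5p. The count was 3 without WT library 1 and 3 without Dicer cKO library 1, which enters through the shared spread. Both knockouts were set against the same WT libraries, so their changes are not independent of each other.

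**Figure D2:**
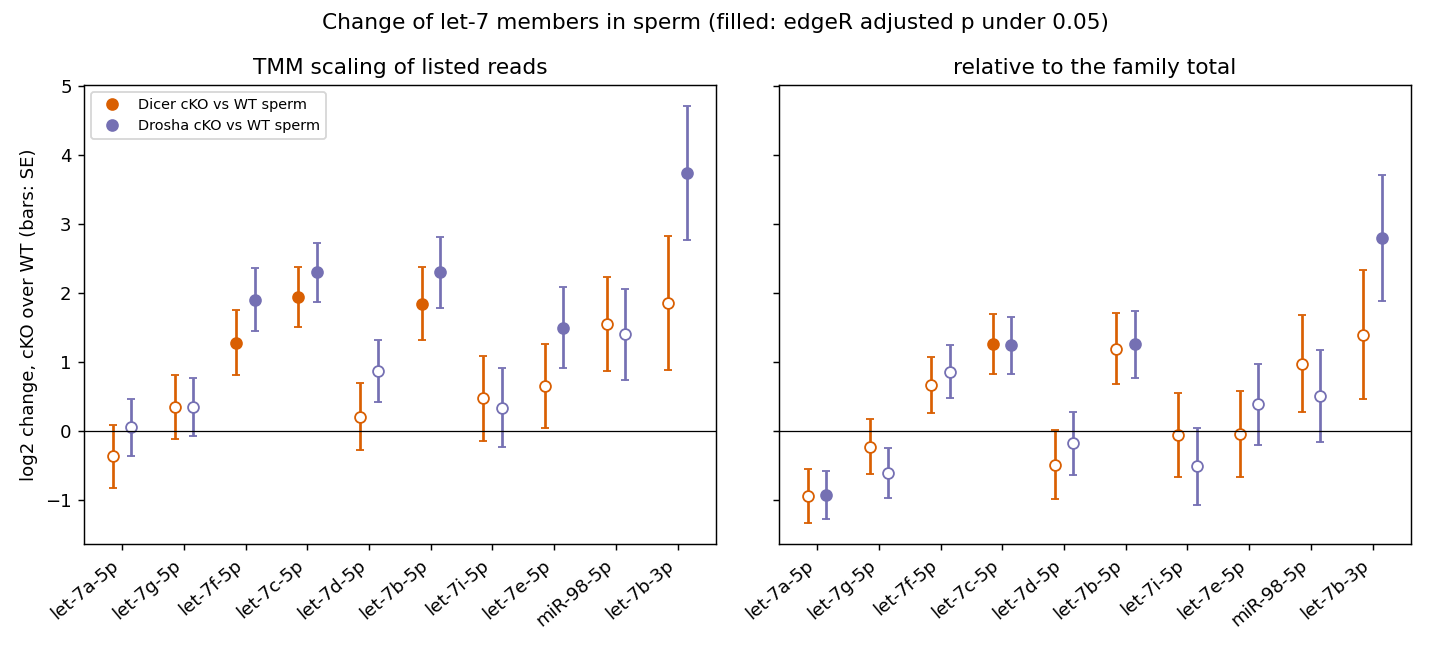
Log2 change of each member, cKO over WT sperm, from edgeR, with bars of 1 SE and filled points for an adjusted p under 0.05, on the TMM scale (left) and relative to the family total (right). On the left let-7b-5p, let-7c-5p and let-7f-5p are filled in both knockouts, and on the right let-7a-5p lies near -0.93 in both while let-7c-5p lies at 1.26 and 1.24. On the scale at right the median of all tested features was -0.66 for Dicer cKO and -0.93 for Drosha cKO.

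The knockouts were also set against each other. Between Dicer cKO and Drosha cKO sperm, none of the 10 members passed by edgeR, beside 0.0% of all 335 tested features in either direction. At an unadjusted p under 0.05 there were 65 features, with 1 member among them, and DESeq2 called 16 features and 0 members. The log2 difference of Dicer cKO over Drosha cKO, with a 95% interval from its SE, was -0.35 (-1.12 to 0.41) for let-7c-5p and -0.63 (-1.47 to 0.22) for let-7f-5p. The member among the 65 was let-7b-3p, which had 138 and 240 CPM in Dicer cKO sperm and 178, 1583 and 1005 CPM in Drosha cKO sperm, against 13.6 and 35.9 CPM in WT sperm. Its log2 change of Dicer cKO over Drosha cKO was -1.88 (edgeR adjusted p = 0.237). The high Drosha cKO values come from the shallow libraries 2 and 3, with 19 and 16 reads. Without those libraries the rise of let-7b-3p in Drosha cKO over WT was 1.42 (edgeR adjusted p = 0.251), and the difference between the knockouts turned to 0.33.

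The make-up of the family also differed between knockout and WT sperm, on a measure that no scaling between libraries can move. Let-7a-5p made up 20.5% ± 1.20 of the reads of the 10 members in Dicer cKO sperm (SD, n = 2) and 20.7% ± 0.869 in Drosha cKO sperm (SD, n = 3), against 39.2% ± 3.93 in WT sperm (SD, n = 2). Let-7c-5p made up 21.5% ± 0.902 in Dicer cKO sperm and 21.3% ± 2.64 in Drosha cKO sperm, against 9.02% ± 3.05 in WT sperm. Let-7f-5p made up 23.2% ± 0.458 in Dicer cKO sperm and 26.5% ± 4.22 in Drosha cKO sperm, against 14.6% ± 0.705 in WT sperm. WT sperm thus had let-7a-5p first and let-7g-5p second, at 23.9% ± 2.89. In knockout sperm let-7f-5p led, and let-7a-5p and let-7c-5p held nearly equal shares. Let-7g-5p made up 20.5% ± 0.034 in Dicer cKO sperm and 15.7% ± 0.959 in Drosha cKO sperm.

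**Figure D3:**
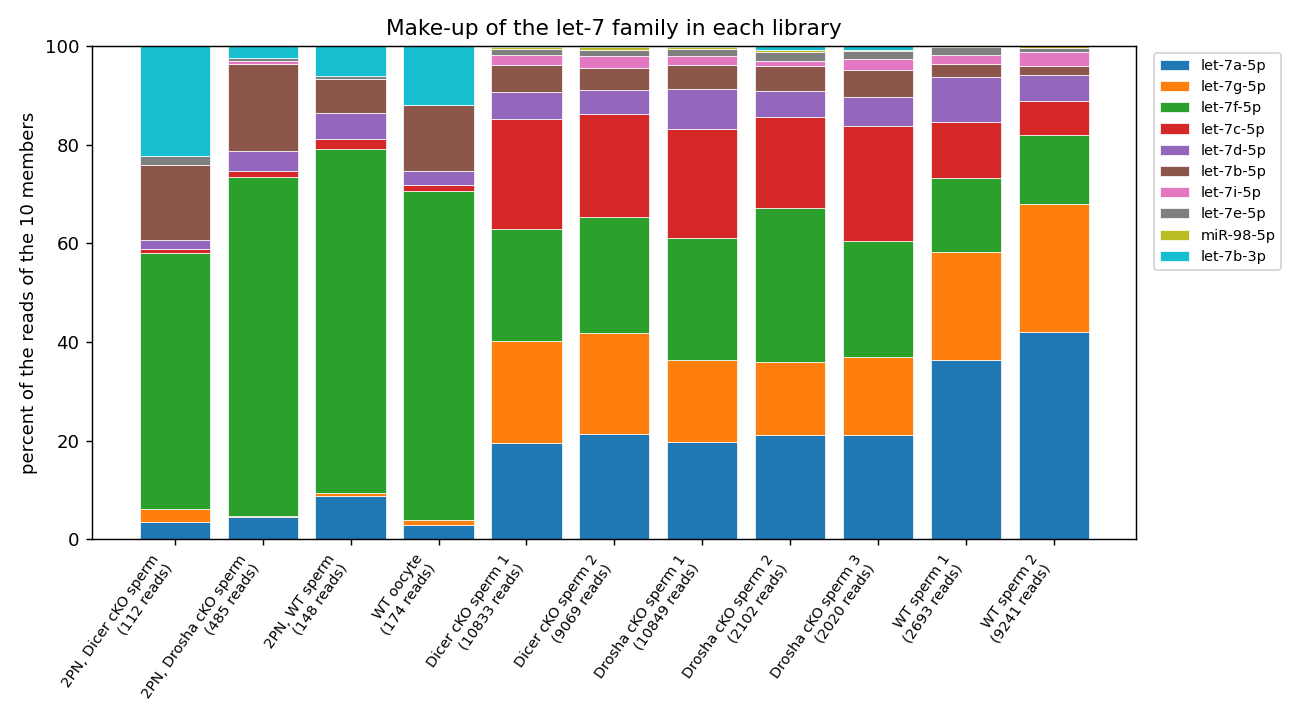
Stacked shares of the 10 members among their summed reads in each library, in percent, with the number of family reads under each bar. Let-7a-5p (bottom) takes 36.4% and 42.0% in WT sperm and 19.6% to 21.3% in the knockout sperm libraries, while let-7f-5p takes 51.8% to 69.6% in oocyte and 2PN libraries.

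As reads per read of let-7a-5p, let-7c-5p stood at 1.13 and 0.979 in the Dicer cKO sperm libraries and at 1.13, 0.867 and 1.10 in the Drosha cKO sperm libraries, against 0.307 and 0.163 in WT sperm. Let-7f-5p stood at 1.16 and 1.10 in the Dicer cKO sperm libraries and at 1.26, 1.48 and 1.11 in the Drosha cKO sperm libraries, against 0.414 and 0.335 in WT sperm. The knockout libraries lay above the WT libraries in both ratios with no overlap. Let-7b-5p and let-7c-5p, by contrast, kept nearly the same ratio to each other. Let-7b-5p reads per let-7c-5p read were 0.247 and 0.218 in the Dicer cKO sperm libraries and 0.221, 0.283 and 0.242 in the Drosha cKO sperm libraries, against 0.229 and 0.268 in WT sperm. Let-7b and let-7c-2 are the hairpins 622 bases apart on chromosome 15, and their mature 5p arms differ at 1 base.

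A second edgeR fit, with each library scaled to its family total, tested these changes of make-up over the same 335 features. In Dicer cKO against WT sperm, 1 of 10 members passed: let-7c-5p rose by 1.26 log2 units (SE 0.434, edgeR adjusted p = 0.0293), beside 7.46% of all features that rose and 34.3% that fell. Let-7a-5p had a log2 change of -0.94 (edgeR adjusted p = 0.0677) and let-7b-5p of 1.19 (edgeR adjusted p = 0.0745). In Drosha cKO against WT sperm 4 members passed, beside 5.97% of all features that rose and 38.8% that fell. Let-7a-5p fell relative to the family by 0.93 (SE 0.352, edgeR adjusted p = 0.0432). A share of the family also falls when other members rise. The median log2 change of all tested features on this scale was -0.66 in Dicer cKO and -0.93 in Drosha cKO, where let-7a-5p was itself the median feature. Let-7c-5p rose by 1.24 (SE 0.407, edgeR adjusted p = 0.0224), let-7b-5p by 1.26 (SE 0.484, edgeR adjusted p = 0.0459) and let-7b-3p by 2.80 (SE 0.916, edgeR adjusted p = 0.0224). Without the shallow Drosha cKO libraries the value of let-7b-3p was 0.99 (edgeR adjusted p = 0.432). Let-7f-5p had a log2 change of 0.86 that did not pass (edgeR adjusted p = 0.0757). Between the knockouts no member passed, beside 0.0% of all features in either direction. At an unadjusted p under 0.05 there were 69 features, with 0 members among them. The counts moved with single libraries, over 0 to 3 members for Dicer cKO and 0 to 5 for Drosha cKO. For Dicer cKO, 0 passed without Dicer cKO library 1, Dicer cKO library 2 or WT library 2, 2 passed without Drosha cKO library 1 and 3 without Drosha cKO library 2. For Drosha cKO, 2 passed without WT library 1, 1 without WT library 2, Dicer cKO library 1 or Dicer cKO library 2, and 0 without Drosha cKO library 3. The size of the let-7a-5p change stayed between -1.04 and -0.83 in Dicer cKO and between -1.02 and -0.82 in Drosha cKO over those fits.

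MiR-99a, miR-99b, miR-100, miR-125a and miR-125b have hairpins on the same chromosomes as let-7 hairpins. In the GRCm38.p6 annotation Mir99b lies 95 bases from Mirlet7e, and those of miR-99a, miR-100 and miR-125a lie at the distances given above. Mir125b-1 is farther off, 45115 bases from Mirlet7a-2, and Mir125b-2 lies 46523 bases from Mirlet7c-1. In Dicer cKO sperm 3 of these 5 partners rose and none fell, beside 16.1% of all tested features that rose, with a median log2 change of 1.41. MiR-99a-5p rose by 1.66 (SE 0.627, edgeR adjusted p = 0.0394), miR-125a-5p by 1.501 (SE 0.586, edgeR adjusted p = 0.0448) and miR-125b-5p by 1.41 (SE 0.438, edgeR adjusted p = 0.0147). In Drosha cKO sperm 1 of 5 rose, beside 22.1% of all tested features, so that count is near the background. It was miR-125b-5p, at 1.06 (SE 0.406, edgeR adjusted p = 0.0371), and the median of the 5 was 1.06. The partners together took 4.15% to 4.65% of listed reads in Dicer cKO sperm and 2.87% to 4.81% in the Drosha cKO sperm libraries, against 0.595% to 1.66% in WT sperm. Relative to the family total, 0 of 5 passed in either knockout.

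**Figure D4:**
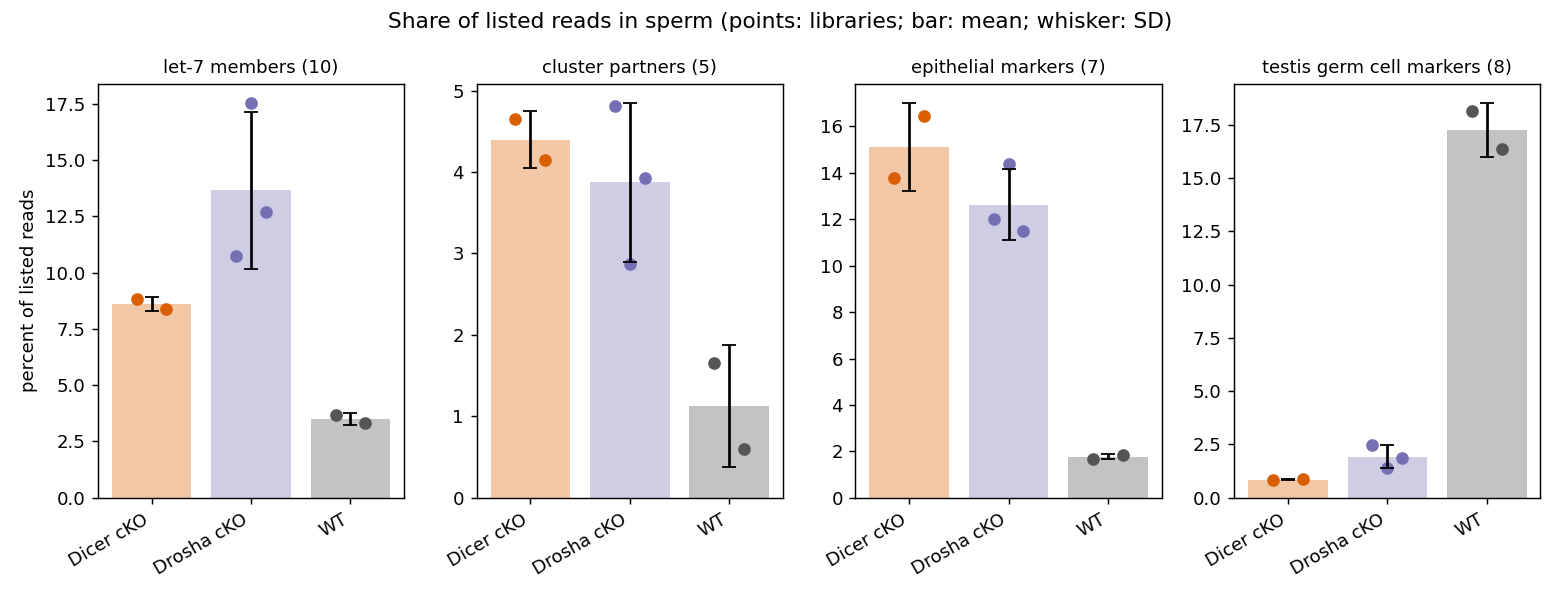
Percent of listed reads in sperm taken by the 10 let-7 members, the 5 cluster partners, the 7 epithelial and the 8 testis germ cell marker miRNAs. Points are libraries, bars are means and whiskers are SDs. The let-7, partner and epithelial panels have every knockout library above the WT libraries, and the germ cell panel has every knockout library below them.

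Markers of other cells and of testis germ cells were tested in the same sperm libraries, and they did not all move alike. Of the 7 epithelial miRNAs (miR-200a, miR-200b, miR-200c, miR-141, miR-429, miR-203 and miR-205), 6 rose and none fell in each knockout, with median log2 changes of 2.50 in Dicer cKO and 1.84 in Drosha cKO sperm. Of the 7 blood cell miRNAs, 4 rose and none fell in Dicer cKO, and 4 rose and 1 fell in Drosha cKO. Their summed share was 5.02% to 5.05% in the Dicer cKO sperm libraries and 2.16% to 2.47% in the Drosha cKO sperm libraries, against 0.513% to 0.525% in WT sperm. Of the 5 stromal miRNAs, 2 rose in Dicer cKO and none passed in Drosha cKO, with shares of 1.87% to 2.61% and 1.08% to 1.69% against 0.315% to 0.795% in WT sperm. All 8 testis germ cell miRNAs fell in both knockouts. These are miRNAs of the cells in which the enzymes were deleted, so their fall is not a measure of germ cell number, which was not tested. Of all tested features, 16.1% rose and 31.0% fell in Dicer cKO, and 22.1% rose and 33.1% fell in Drosha cKO. Relative to the family total, the epithelial count was 6 of 7 higher in Dicer cKO and 0 of 7 in Drosha cKO. The blood count on that scale was 4 higher in Dicer cKO, and 1 higher and 2 lower in Drosha cKO. Of all tested features, 7.46% rose and 34.3% fell on that scale in Dicer cKO, and 5.97% rose and 38.8% fell in Drosha cKO. The part of other cell types in the let-7 values was not tested.

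Rows for other arms and copies of the family numbered 13 in the table, and 4 of them passed the expression filter. None of the 4 was called in either knockout on the TMM scale. Let-7d-3p, the opposite arm to let-7d-5p, had log2 changes of -0.21 in Dicer cKO and -1.27 in Drosha cKO (edgeR adjusted p = 0.808 and 0.1003). Relative to the family total, let-7d-3p, let-7a-1-3p and let-7j passed as lower in Drosha cKO sperm, with log2 changes of -2.15, -2.47 and -1.962 (edgeR adjusted p = 0.0125, 0.0256 and 0.0255), and none was called in Dicer cKO sperm. On that scale 38.8% of all tested features fell in Drosha cKO sperm, and the median log2 change of all tested features was -0.93. The fall of let-7d-3p rests on 4 and 3 reads in the shallow Drosha cKO libraries and 32 in the deep library. Let-7a-1-3p had 0 and 5 reads in the shallow libraries and 10 in the deep one, and let-7j had 2 and 3, and 27.

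The oocyte and 2PN libraries each stand alone, so their values have no replicate check and their intervals are exact 95% intervals that cover counting error only. In these libraries the family was mostly let-7f-5p. It made up 51.8% of family reads in the Dicer cKO 2PN library (42.1% to 61.3%), 68.7% in the Drosha cKO 2PN library (64.3% to 72.8%), 69.6% in the WT 2PN library (61.5% to 76.9%) and 66.7% in the oocyte (59.1% to 73.6%). All lay above the 14.1% and 15.1% of WT sperm. Let-7b-5p was the next 5p member in 3 of these 4 libraries, at 15.2% in the Dicer cKO 2PN library, 17.5% in the Drosha cKO 2PN library and 13.2% in the oocyte. In the WT 2PN library let-7a-5p, with 13 reads, stood above let-7b-5p, with 10. The whole family rested on 112, 485 and 148 reads in the Dicer cKO, Drosha cKO and WT 2PN libraries and on 174 in the oocyte.

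The family took 3.15% of listed reads (2.70% to 3.64%) in the oocyte, against 3.67% and 3.31% in WT sperm. Its ratio to the pooled reads of the WT sperm libraries was 0.929 (0.795 to 1.08). On the deposited RPM scale the family stood at 154 RPM in the oocyte, against 791 and 3331 RPM in WT sperm. In CPM its members differed more. Let-7f-5p had 20976 CPM (116 reads) in the oocyte, against 5533 and 4665 CPM in WT sperm, which is 3.79-fold (3.06 to 4.67) and 4.50-fold (3.69 to 5.44) higher. Let-7a-5p had 904 CPM (5 reads) in the oocyte, against 13369 and 13912 CPM in WT sperm, which is 14.8-fold (6.31 to 45.6) and 15.4-fold (6.59 to 47.4) lower. These were the members deep enough for the call of a 2-fold difference. Among all 37 features deep enough, 37.8% were higher and 62.2% lower in the oocyte. With the authors' divisor the direction of let-7f-5p turned, with a log2 ratio of oocyte to WT sperm of -1.52 against 2.04 in CPM. The share within the family does not use that divisor.

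Other members were near their counting limit in the oocyte. Let-7c-5p and let-7g-5p had 2 reads each, and let-7d-5p had 5. Let-7e-5p, let-7i-5p and miR-98-5p had 0 of 5530 listed reads, which allows up to 667 CPM. Neither let-7e-5p (600 and 290 CPM in WT sperm) nor miR-98-5p (95.4 and 82.5 CPM) could therefore be told apart from WT sperm. For let-7i-5p the exact upper bound of 0 reads, 667 CPM, took in the 654 CPM of WT library 1 and lay below the 925 CPM of WT library 2. Let-7b-5p, at 4159 CPM with 23 reads, lay above its 940 and 610 CPM in WT sperm, with ratios of 4.42 (2.63 to 7.18) and 6.82 (4.21 to 10.6). This direction was not kept on the RPM scale, where let-7b-5p had 20.3 RPM in the oocyte, against 20.3 and 61.3 RPM in WT sperm. The ratio of let-7b-5p to let-7c-5p, steady across sperm, was 11.5 in the oocyte and 17, 14.2 and 3.33 in the Dicer cKO, Drosha cKO and WT 2PN libraries, with only 1 to 6 reads of let-7c-5p in each.

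Between the WT 2PN library and the oocyte no member deep enough for the call passed 2-fold, beside 12.5% higher and 0.0% lower among the 8 features deep enough. Let-7f-5p had 31761 CPM in the WT 2PN library and 20976 CPM in the oocyte, a ratio of 1.51 (1.15 to 1.99). The family as a whole took 4.56% (3.87% to 5.34%) in the WT 2PN library and 3.15% in the oocyte, a ratio of 1.45 (1.16 to 1.82). On the RPM scale these ratios were smaller, at 1.16 for let-7f-5p and 1.11 for the family (171 RPM in the WT 2PN library against 154 RPM in the oocyte). Let-7a-5p had 13 reads in the WT 2PN library and 5 in the oocyte, with a ratio of 4.43 (1.48 to 15.9), but was not deep enough for the call. Sperm markers were few in the embryos: the 8 testis germ cell miRNAs took 0.0925% of listed reads in the WT 2PN library and 0.0904% in the oocyte.

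Among embryos, no member deep enough for the call passed 2-fold in CPM in either knockout comparison. Of all features deep enough, 12.5% were higher and 37.5% lower among 8 for Dicer cKO. For Drosha cKO, 0.0% were higher and 33.3% lower among 9. Let-7f-5p was the only member deep enough. It had 19654 CPM (58 reads) in the Dicer cKO 2PN library against 31761 CPM (103 reads) in the WT 2PN library, a ratio of 0.619 (0.441 to 0.862). In the Drosha cKO 2PN library it had 37136 CPM (333 reads), a ratio of 1.17 (0.935 to 1.47) to the WT 2PN library. The family ratio was 0.832 (0.645 to 1.07) for Dicer cKO and 1.19 (0.984 to 1.43) for Drosha cKO 2PN over WT 2PN. On the RPM scale the differences were larger. Let-7f-5p had 38.6 RPM in the Dicer cKO 2PN library and 274 RPM in the Drosha cKO 2PN library, against 119 RPM in the WT 2PN library (RPM ratios of 0.325 and 2.30). The family had 74.5 RPM in the Dicer cKO 2PN library and 399 RPM in the Drosha cKO 2PN library, against 171 RPM in the WT 2PN library. Let-7b-5p, with 85 reads in the Drosha cKO 2PN library and 10 in the WT 2PN library, had a CPM ratio of 3.07 (1.59 to 6.64) and an RPM ratio of 6.06. In the Dicer cKO 2PN library its ratio was 1.87 (0.808 to 4.57), on 17 reads. MiR-98-5p had 0 reads in all 3 embryo libraries, which allows up to 1249, 411 and 1137 CPM in the Dicer cKO, Drosha cKO and WT 2PN libraries.

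The level of the whole family, as a share of listed reads, ran from 13.6% in Drosha cKO sperm and 8.60% in Dicer cKO sperm, through 5.41%, 4.56% and 3.80% in the Drosha cKO, WT and Dicer cKO 2PN libraries, to 3.49% in WT sperm and 3.15% in the oocyte. The Drosha cKO and Dicer cKO sperm libraries did not overlap. Below them, the counting interval of each 2PN library overlapped that of its neighbour in the order, that of Dicer cKO 2PN (3.14% to 4.55%) included the WT sperm libraries, and that of the oocyte included the lower of them. By mean RPM the order differed: Dicer cKO sperm (4889), Drosha cKO sperm (3557), WT sperm (2061), Drosha cKO 2PN (399), WT 2PN (171), oocyte (154) and Dicer cKO 2PN (74.5).

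The arms of the let-7b hairpin gave a further difference between sperm and the other libraries. The 5p arm is the one usually loaded into the silencing complex, and the 3p arm usually decays. Let-7b-3p made up 59.5% of let-7b reads in the Dicer cKO 2PN library (43.3% to 74.4%), 12.4% in the Drosha cKO 2PN library (6.56% to 20.6%), 47.4% in the WT 2PN library (24.4% to 71.1%) and 47.7% in the oocyte (32.5% to 63.3%). In sperm it made up 2.79% and 5.92% in Dicer cKO libraries and 3.27%, 14.8% and 12.3% in Drosha cKO libraries, against 1.43% and 5.56% in WT libraries. The oocyte, WT 2PN and Dicer cKO 2PN intervals lay above every sperm interval, and the Drosha cKO 2PN interval overlapped those of sperm. Among sperm groups the two-sided exact permutation test could not reach a p of 0.05 at these sizes. Dicer cKO minus WT was 0.863 percentage points (exact permutation p = 0.667, with 0.333 the smallest p possible) and Drosha cKO minus WT was 6.65 points (exact permutation p = 0.4, with 0.2 the smallest possible). Dicer cKO minus Drosha cKO was -5.79 points (exact permutation p = 0.4). The sign of the Dicer cKO difference turned when Dicer cKO library 2 (-0.705 points) or WT library 1 (-1.20 points) was left out.

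**Figure D5:**
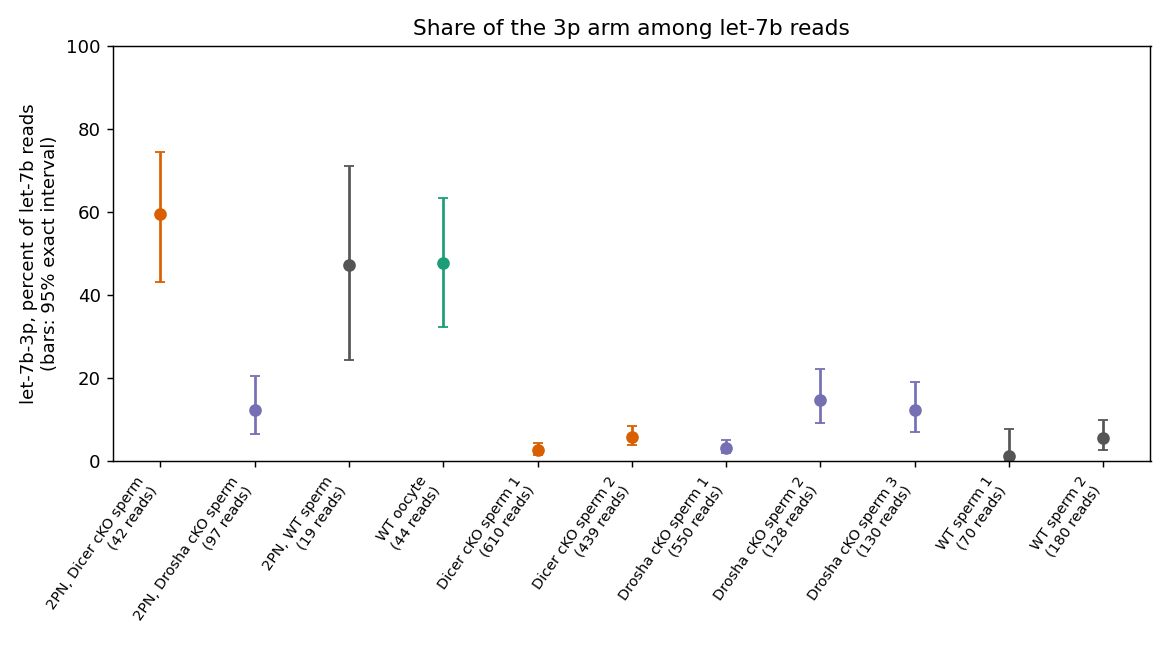
Share of let-7b-3p among all let-7b reads in each library, in percent, with exact 95% intervals and the number of let-7b reads under each point. The Dicer cKO 2PN, WT 2PN and oocyte libraries lie between 47.4% and 59.5%, and the Drosha cKO 2PN and sperm libraries lie at or below 14.8%.

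Features whose level across all 11 libraries was most like the summed 5p members were found among 40 features with a read in every library and a mean of at least 500 CPM. By Pearson's r of log2 CPM these were miR-96-5p (0.922), miR-31-5p (0.875), miR-222-3p (0.874), miR-221-3p (0.794) and miR-125b-5p (0.787). The 11 points are not independent, since sperm libraries cluster by genotype and embryo libraries share low depth, so the values describe these libraries. MiR-222-3p, for example, averaged 5727 CPM in Dicer cKO sperm and 5528 CPM in Drosha cKO sperm, against 447 CPM in WT sperm.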

How the data were processed

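Per the file headers and values, the authors deposited a table of raw read counts per feature and a table of RPM, where a whole number per library (412523 to 3743577) divides every count; the labels do not state what it counts. In sperm 2.11% to 10.1% of it were listed reads, and in the embryos and oocyte 0.196% to 0.737%. Bowtie and mm10 are named in the submitters' processing notes; versions, the read assignment rule and the miRNA release are not stated there. The series text names the Ion Torrent Proton, whereas the labels' protocols name Illumina library preparation.

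Sperm counts were tested in edgeR 4.0.16 (R 4.3.3) over all 7 sperm libraries, with TMM scaling, its default expression filter (335 features) and the two-sided quasi-likelihood test at an adjusted p of 0.05, and again with library sizes set to the reads of the 10 members. The fit's biological coefficient of variation was 0.459, and TMM factors were 1.05 in both Dicer cKO, 1.20 to 1.31 in Drosha cKO, and 0.907 and 0.493 in WT libraries. Replicates differed beyond counting error (chi-square per degree of freedom 5.74 to 42.0), and no library was a copy of another. DESeq2 1.42.0 was an alternative. Fits were tested on simulated data. In single libraries, a difference was called at 2-fold among features reaching the equivalent of 50 reads in the shallower library. Intervals are exact (Clopper-Pearson for shares, 95%) and cover counting error only, since reads without molecular identifiers are not independent molecules. For 0 reads the limit given is the upper end of the exact interval, and the 2-fold calls use a floor of 3 reads.

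Sequences and coordinates come from RefSeq tables on GRCm38.p6, the build also called mm10. The genome supplied is of another build and was left out. The text names all members, other rows of the family, 5 cluster partners and the 5 features most like the family. The members and lists were chosen with earlier results of these data known. Alternatives were other scalings, filters, DESeq2, fits of only the groups compared, a replicate block, miRNAs alone and leaving out each library.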

Additional observations from a re-analysis of the deposited data

Results flagged for a closer look

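Let-7b-3p and let-7f-5p were picked out because their ratios to the same WT 2PN library lay on opposite sides of 1 in the Dicer cKO and Drosha cKO 2PN libraries. Let-7b-3p had a CPM ratio of 3.05 (1.38 to 7.43) in the Dicer cKO 2PN library, on 25 reads against 9 in WT 2PN. In the Drosha cKO 2PN library its ratio was 0.482 (0.186 to 1.30), on 12 reads. The RPM ratios of let-7b-3p were 1.60 and 0.951. Let-7f-5p had a CPM ratio of 0.619 (0.441 to 0.862) in the Dicer cKO 2PN library and of 1.17 (0.935 to 1.47) in the Drosha cKO 2PN library. For both members the Drosha cKO interval included 1. With 1 library each, the differences were not tested.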

How the results depend on the processing

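For Dicer cKO against WT sperm, 3 members were called, and the count was 6 with library totals, 1 at a mean of at least 10 CPM, 6 with only the 2 groups compared, and 0 to 4 when 1 library was left out. For Drosha cKO against WT sperm, 5 were called, and the count was 10 with library totals, 2 with the authors' divisor, 1 with no filter, 3 at 10 CPM, 3 without the shallow Drosha cKO libraries, and 3 to 5 when 1 library was left out. Between the knockouts it was 0 throughout. Relative to the family, the Dicer cKO count of 1 became 3 with only the 2 groups, 0 with no filter, 0 at 10 CPM, 2 without the shallow libraries and 0 to 3 when 1 library was left out. The Drosha cKO count of 4 became 1 with only the 2 groups, 1 with no filter, 2 at 10 CPM, 1 without the shallow libraries and 0 to 5 when 1 library was left out. The cause was not tested. Over all 17 alternatives scaled between libraries, let-7c-5p passed in 16 for each knockout and let-7b-5p in 13 for Dicer cKO and 15 for Drosha cKO. The other called members were let-7f-5p, which passed in 7 for Dicer cKO and 12 for Drosha cKO, and, in Drosha cKO alone, let-7b-3p in 16 and let-7e-5p in 5. The number of all tested features that rose moved with the setting too, and the member counts are to be read beside it. With no filter, 14 features rose and 98 fell in Drosha cKO, in place of 74 and 111. There 134 rose with library totals, 23 with the authors' divisor and 24 at 10 CPM. In Dicer cKO 101 features rose with library totals, 39 at 10 CPM and 96 with only the 2 groups compared, in place of 54.

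Signs turned for members near 0 and for let-7b-3p between the knockouts (-1.88 on the TMM scale, -1.40 relative to the family). With the authors' divisor, the let-7f-5p sign between oocyte and WT sperm (2.04 in CPM) turned as well. In Dicer cKO, let-7a-5p (-0.36) became 0.36 with library totals, 0.26 with the divisor, 0.25 with no filter and 0.11 with only the 2 groups, and let-7d-5p (0.21) became -0.043 with miRNAs only and -0.075 without the shallow libraries. In Drosha cKO, let-7a-5p (0.05) became -0.066 with DESeq2 size factors, -0.066 in DESeq2, -0.19 with the divisor, -0.28 with no filter, -0.38 at 10 CPM, -0.19 with miRNAs only, -0.20 with only the 2 groups and -0.53 without the shallow libraries. There let-7g-5p (0.35) became -0.071 at 10 CPM and -0.057 without the shallow libraries, and let-7i-5p (0.34) became -0.035 with the divisor and -0.10 at 10 CPM. Without the shallow libraries, let-7b-3p in Dicer cKO over Drosha cKO became 0.33, and 0.41 relative to the family, where let-7d-5p in Drosha cKO over WT became 0.17. When 1 library was left out, let-7a-5p ran from -0.75 to -0.18 (Dicer cKO) and -0.80 to 0.38 (Drosha cKO), let-7d-5p from -0.36 to 0.39 in Dicer cKO, let-7g-5p from -0.054 to 0.53 and -0.51 to 0.61, and let-7i-5p from -0.054 to 0.78 and -0.64 to 0.65. Relative to the family, let-7e-5p ran from -0.43 to 0.46 and -0.011 to 0.89, let-7i-5p from -0.33 to 0.32 in Dicer cKO and let-7d-5p from -0.53 to 0.28 in Drosha cKO.

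With the authors' divisor, the count of members deep enough and past 2-fold was 6 in place of 2 for the oocyte against WT sperm (let-7f-5p at -1.52). It was 1 in place of 0 for Dicer cKO 2PN and 2 in place of 0 for Drosha cKO 2PN, both against WT 2PN. The let-7b-3p share differed by -1.20 to 2.93 points between Dicer cKO and WT, 4.30 to 10.1 between Drosha cKO and WT and -9.22 to -3.44 between the knockouts when 1 library was left out.

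Same-numbered libraries deviated together from their group means, with correlations of 0.312 between WT and Dicer cKO, 0.255 and 0.195 between WT and Drosha cKO and 0.294 and 0.181 between the knockouts, but only 2 pairs exist and the labels do not say that numbers pair libraries. With the replicate number as a block, the counts were 4 for Dicer cKO, 5 for Drosha cKO and 0 between the knockouts, and relative to the family 1, 2 and 0. Depth limits the oocyte and 2PN libraries most, where 0 reads allow up to 411 to 1249 CPM.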

Other observations

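The 3p arms of let-7a-1 and let-7c-2 have the same mature sequence in the RefSeq table, shown because the count table lists them as separate rows.
let-7a-1-3p: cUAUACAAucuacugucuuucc
let-7c-2-3p: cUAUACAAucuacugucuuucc

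Reads were nevertheless assigned to the rows in different proportions. Let-7c-2-3p had 0 reads in all 7 sperm libraries, where let-7a-1-3p had 27 and 17 reads in Dicer cKO sperm, 10, 0 and 5 in Drosha cKO sperm, and 11 and 71 in WT sperm. In the Drosha cKO 2PN library let-7c-2-3p had 13 reads and let-7a-1-3p had 2. In the oocyte they had 3 and 5 reads. The labels do not state how reads of identical sequences were assigned.

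Let-7k, which shares the seed of the 5p members, had 2 reads in each Dicer cKO sperm library, 3, 0 and 0 in the Drosha cKO sperm libraries, and 0 in both WT sperm libraries and in the oocyte and 2PN libraries.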
